A study of Mus musculus with 55 samples.

Results

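The transcription factors Pdx1, Nkx6-1, Mafa, Nkx2-2, Isl1, Neurod1 and Pax6 are widely named as the core of adult β cell identity. They were chosen by name, with earlier results of these data known. All 7 were among the 47937 genes counted in bulk RNA-seq of whole mouse islets. The study deleted Eed, a subunit that Polycomb repressive complex 2 (PRC2) needs to methylate histone H3 at lysine 27, in β cells, and asked how β cell identity depends on Polycomb silencing. Islets came from male C57B6/J mice, wild type (WT), heterozygous (HET) or lacking Eed in β cells (βEedKO, labelled Eed -/-), at 8 and 25 weeks of age, in 16 libraries.

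The βEedKO animals carried floxed Eed alleles and RIP-cre, a Cre recombinase driven by the insulin promoter, so only insulin-promoter-active cells are targeted and islets keep other cells with intact Eed. Whether the WT animals carried RIP-cre or a floxed allele is not stated in the sources used here. WT, HET and βEedKO had 3 libraries each at 8 weeks, and 3, 2 and 2 libraries at 25 weeks, respectively. Each library held the islets of 1 or 2 animals, except that the βEedKO libraries at 25 weeks each pooled at least 4 animals. Islets were released with collagenase and hand-picked, and whether those used for RNA were kept in culture first is not clear from the sources used here. A fall in a bulk library can be fewer cells of a type or less RNA per cell, and these cannot be told apart here. From other assays, the paper reports no evidence of altered cell death, lineage-traced cells without insulin, and reduced staining for some of these factors. It describes the βEedKO animals as glucose tolerant at the younger age and overtly diabetic at the older. It proposes that high glucose is not strictly required for the loss of identity. Genotype and diabetes thus go together at 25 weeks, and the part of glucose was not tested.

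Adult β cells are kept in their state by transcription factors that bind together at islet enhancers and at one another's genes. Pdx1, Nkx6-1 and Mafa are largely β cell factors within the adult mouse islet, whereas Pax6, Isl1, Nkx2-2 and Neurod1 are also used by other islet endocrine cells. Loss of these factors from β cells is associated with loss of insulin production and glucose sensing.

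On GRCm38, Pdx1 lies at chr5:147269959-147275848 on the + strand, Nkx6-1 lies at chr5:101658139-101664996 on the - strand, Nkx2-2 lies at chr2:147177546-147194243 on the - strand, and Mafa lies at chr15:75745490-75748228 on the - strand. Pax6 lies at chr2:105668900-105697364 on the + strand, Neurod1 lies at chr2:79452521-79456751 on the - strand, and Isl1 lies at chr13:116298281-116309689 on the - strand. All 7 are annotated as protein-coding, and reads were counted per gene.

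In a chromatin-state segmentation of WT islets, in which every 200 bp bin of the genome has 1 letter, the annotated start of each of the 7 genes lay in state A, an active start site state. The 250 bases upstream of the RefSeq start were available for 6 of the 7. The lines below show the parts of 4 of these windows that lie upstream of every annotated coding transcript start in them, read from RefSeq on GRCm38.p6 and written 5′ to 3′ on the gene's strand. They are shown as examples of starts that state A covers. The window of Nkx6-1 left no such part, and that of Neurod1 is not shown. Capitals mark the CCAAT box, CCAAT or its complement ATTGG.
Pdx1, chr5:147269847-147269958, + strand: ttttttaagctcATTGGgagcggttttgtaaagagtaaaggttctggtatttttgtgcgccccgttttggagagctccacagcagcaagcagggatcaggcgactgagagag
Pax6, chr2:105668646-105668895, + strand: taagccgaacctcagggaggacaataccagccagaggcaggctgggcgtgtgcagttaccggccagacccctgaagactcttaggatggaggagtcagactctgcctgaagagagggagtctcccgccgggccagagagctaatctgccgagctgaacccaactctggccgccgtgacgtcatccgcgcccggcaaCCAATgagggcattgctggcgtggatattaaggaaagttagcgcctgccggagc
Isl1, chr13:116309690-116309938, - strand: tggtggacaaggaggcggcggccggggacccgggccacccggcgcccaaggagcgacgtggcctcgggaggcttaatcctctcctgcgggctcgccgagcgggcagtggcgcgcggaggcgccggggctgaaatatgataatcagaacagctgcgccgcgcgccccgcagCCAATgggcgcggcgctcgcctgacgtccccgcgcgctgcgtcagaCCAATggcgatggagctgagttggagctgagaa
Nkx2-2, chr2:147186405-147186652, - strand: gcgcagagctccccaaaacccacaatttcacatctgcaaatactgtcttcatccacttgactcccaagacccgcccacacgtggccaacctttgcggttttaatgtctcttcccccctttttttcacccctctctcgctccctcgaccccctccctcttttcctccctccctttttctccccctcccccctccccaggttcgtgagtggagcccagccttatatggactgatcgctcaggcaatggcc

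Over the full 250 bases, CCAAT was found on either strand in 3 of the 6 members with a window, Pdx1, Pax6 and Isl1, against 33.8% of the 32851 promoters in the RefSeq table. Nkx6-1, Nkx2-2 and Neurod1 had 0 matches, and of these Nkx6-1 was among the factors called lower at 25 weeks. An E-box, CANNTG, the class of site that Neurod1 and other basic helix-loop-helix proteins read, was found in 4 of the 6 and in 66.2% of all promoters. TAAT on either strand, the core read by homeodomain proteins, was found in 3 of the 6 and in 54.9% of all. These are letter matches in 1 window per gene, whereas the shares over all promoters count every window in the RefSeq table. A second window of Pax6, at another RefSeq start, was left out of the counts. It had 0 matches to CCAAT, 1 to the E-box and 2 to TAAT. Sites elsewhere were not searched. The promoters differed in CpG content: Nkx2-2 had 8 CpG in the 250 bases and Pdx1 10, whereas Nkx6-1 had 30 and Isl1 33, against a median of 6 over all promoters.

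Libraries held 4645393 to 22925359 counts. Levels are given as CPM, read counts relative to the TMM-scaled library size. Eed, the targeted gene, averaged 29.4 CPM (SD 4.89, n = 3) in WT against 14.4 CPM (SD 0.813, n = 3) in βEedKO islets of 8 weeks. The averages at 25 weeks were 23.2 CPM (SD 4.66, n = 3) and 14.9 CPM (SD 0.954, n = 2), and every βEedKO library lay below every WT library of its age. Other facts of the libraries move with the groups. Ins1 and Ins2 together made up 0.891% and 2.21% of all reads in the 2 βEedKO libraries at 25 weeks, and 9.40% to 18.9% elsewhere. The 8 acinar markers summed to 333432 and 10456 CPM in these 2 libraries, and to between 20054 and 185627 CPM in the others. At 8 weeks, 11 interferon-induced genes summed to between 3318 and 4834 CPM in WT replicates 3 and 4 and βEedKO replicates 4 and 5, and to between 69.0 and 163 CPM in the other 12 libraries of the study.

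All 7 factors were expressed in every WT library, at 26.6 CPM or more. Compared per kilobase of exon, Nkx6-1 was the highest of the 7 in WT islets at 25 weeks, at 99.5 ± 8.24 CPM per kb (SD, n = 3). Neurod1 at 62.9 ± 8.87 and Pdx1 at 51.7 ± 6.18 CPM per kb followed; their ranges overlapped, but Neurod1 was the higher in each of the 3 libraries. Nkx2-2, Isl1, Mafa and Pax6 came next, at 39.2 ± 1.60, 37.4 ± 6.56, 37.3 ± 15.2 and 31.4 ± 3.68 CPM per kb, and changed places between libraries. The length used is the union of all annotated exons, which for Pax6 is 11694 bp, so its level per kb is low for the length of any 1 transcript. The plot of CPM in each library shows the 7 factors side by side.

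**Figure D1:**
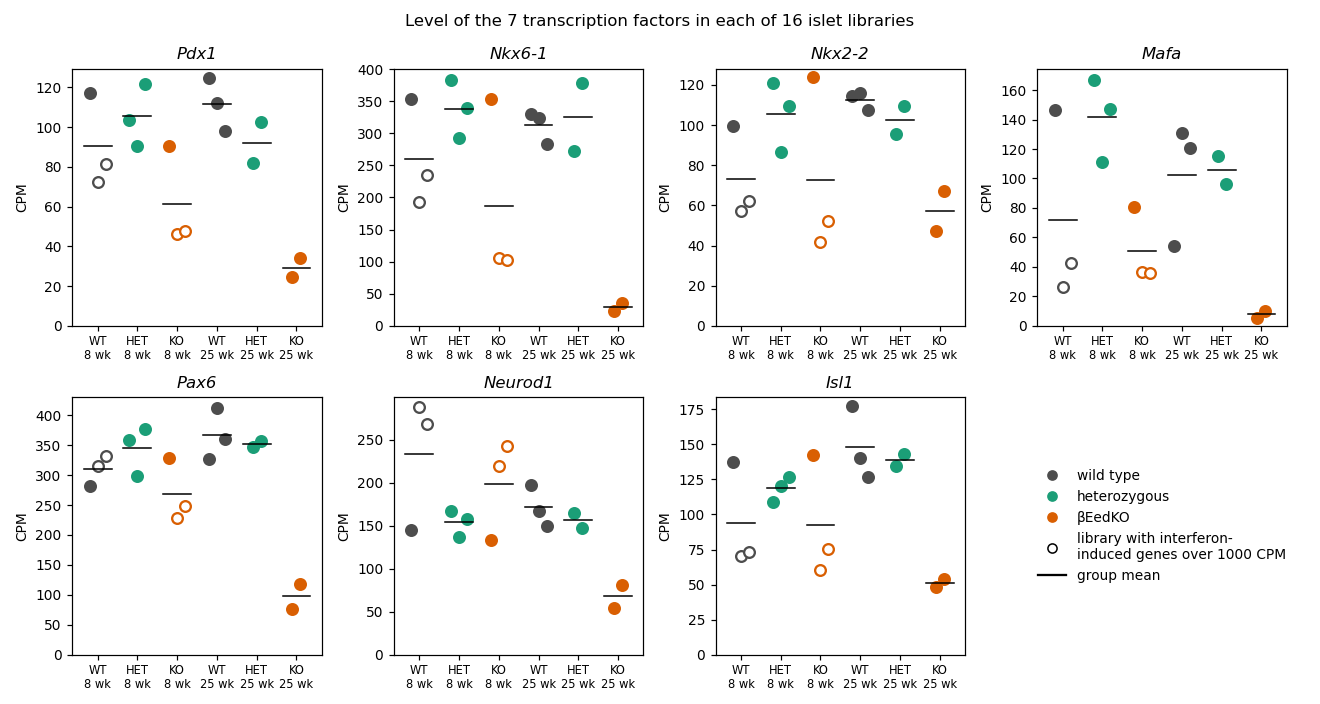
TMM-scaled CPM (y axis, linear from 0) of each factor in each of the 16 libraries, by genotype and age; points are libraries, horizontal lines are group means, and open points are the 4 libraries with high interferon-induced genes. Both βEedKO libraries at 25 weeks lie below every WT and HET library of that age for all 7 factors, with Nkx6-1 at 22.3 and 35.9 CPM and Mafa at 5.25 and 10.3 CPM.

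At 25 weeks, 5 of the 7 factors fell in βEedKO islets and all 7 were lower without overlap between groups. Mafa, which drives insulin transcription and marks mature β cells, and Nkx6-1, which holds the β cell fate and represses the α cell programme, were lower by 13.6- and 11.2-fold. Pdx1, Pax6 and Isl1 were at log2 fold changes of −1.99, −1.97 and −1.58, and Neurod1 and Nkx2-2 were lower by 2.62- and 2.04-fold without passing the test. In edgeR's quasi-likelihood test with Benjamini-Hochberg adjustment over all genes, 2.02% of the 18685 genes tested were called lower. Non-overlapping lower values, the state of all 7 factors, were found for 15.9% of genes.

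Mafa was at 54.5, 131 and 121 CPM in the 3 WT libraries at 25 weeks and at 5.25 and 10.3 CPM in the 2 βEedKO libraries. WT replicate 2, the shallowest library, was the lowest of the WT values and still far above either βEedKO library. The log2 fold change was −3.76 (SE 0.80, adjusted p = 0.0206 in edgeR), and 0.236% of the genes tested had a lower value.

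Nkx6-1 was at 330.5, 324 and 283 CPM in WT and at 22.3 and 35.9 CPM in βEedKO at 25 weeks. The WT values lay close together and far above both βEedKO values. The log2 fold change was −3.48 (SE 0.59, adjusted p = 0.00637 in edgeR).

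Pdx1, which acts in pancreas formation and later on insulin and glucose transporter genes, was at 124, 112 and 97.9 CPM in WT and at 24.6 and 33.9 CPM in βEedKO. Its log2 fold change was −1.99 (SE 0.34, adjusted p = 0.00741 in edgeR). All WT values were far above both βEedKO values.

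Pax6, a paired-box factor of all islet endocrine cells, was at 327.5, 413 and 361 CPM in WT and at 76.9 and 118 CPM in βEedKO. Its log2 fold change of −1.97 had the smallest error of the 7 (SE 0.29, adjusted p = 0.00347 in edgeR). The fall was close to that of Pdx1, and the log2 ratio of Pdx1 to Pax6 was −1.88 to −1.39 in WT and −1.79 to −1.64 in βEedKO.

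Isl1, a LIM-homeodomain factor shared by the islet endocrine cells, was at 177, 140.0 and 127 CPM in WT and at 48.5 and 54.1 CPM in βEedKO. Its log2 fold change was −1.58 (SE 0.40, adjusted p = 0.0423 in edgeR). The 2 βEedKO values differed by little, and the WT values were all above 100 CPM.

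Neurod1, a basic helix-loop-helix activator of the insulin gene, was at 197.5, 168 and 149.6 CPM in WT and at 54.4 and 81.7 CPM in βEedKO. The groups did not overlap, but with a log2 fold change of −1.39 (SE 0.39) it did not pass over all genes (adjusted p = 0.0614 in edgeR). With the replicate number as a block it did (adjusted p = 0.0332), as in DESeq2 (adjusted p = 0.00730).

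Nkx2-2, a repressor that keeps β cells from other endocrine fates, was at 114.5, 116 and 107 CPM in WT and at 47.3 and 67.4 CPM in βEedKO. It was the least changed of the 7, with a log2 fold change of −1.03 (SE 0.42, adjusted p = 0.202 in edgeR). The values of the groups did not overlap.

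The count of 5 rests on few libraries. It became 1 (Pax6) without βEedKO replicate 2 and 3 (Pdx1, Nkx6-1, Pax6) without βEedKO replicate 3, where the lone βEedKO library is assumed to vary like the other groups. It was 3 (the same 3 genes) without WT replicate 3 or WT replicate 4, and 4 without WT replicate 2, when Isl1 was lost. It was 2 (Nkx6-1 and Mafa) when counts were scaled by library size alone, which raised the median of all genes by 0.24 on the log2 scale. Acinar markers stood apart in βEedKO replicate 2. With these and the hormone genes left out of the scaling the count was 5, and the 7 factors together were at 24.4% of WT, against 25.7%.

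**Figure D2:**
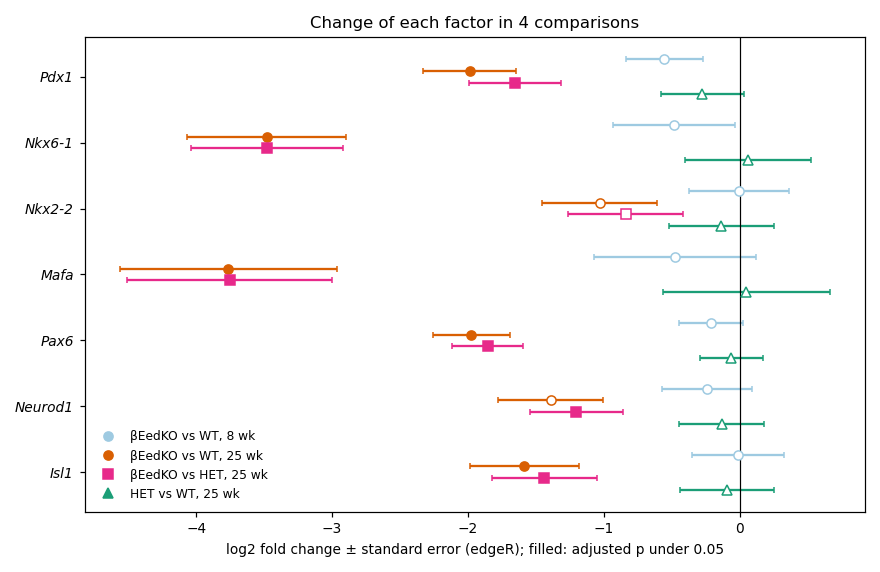
Log2 fold change (x axis) with its standard error from edgeR for each of the 7 factors (rows) in 4 comparisons; filled symbols have an adjusted p under 0.05 over all genes. At 25 weeks the βEedKO values lie between −3.76 and −1.03 against WT and between −3.75 and −0.84 against HET, and the HET values against WT lie between −0.27 and 0.06.

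The factors did not fall in proportion. Summed CPM of the 7 was 1246 to 1403 in WT, 1212 and 1336 in HET, and 279 and 401 in βEedKO at 25 weeks. As a share of the summed CPM per kb, Nkx6-1 held 26.9% to 28.6% in WT and 9.39% and 10.6% in βEedKO. Nkx2-2 held 10.7% to 11.2% in WT and 21.8% and 21.7% in βEedKO. Neurod1 held 16.4% to 19.7% in WT and 26.4% and 27.7% in βEedKO. The largest member per kb changed with it: Nkx6-1 had rank 1 in each WT and HET library at 25 weeks and rank 5 in both βEedKO libraries, where Neurod1 had rank 1 and Nkx2-2 rank 2. The stacked plot of shares gives every library.

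The log2 ratio of Nkx6-1 to Nkx2-2 in CPM was 1.40 to 1.53 in WT, 1.51 and 1.79 in HET, and −1.08 and −0.91 in βEedKO at 25 weeks. A ratio within a library does not depend on its scaling. Of the 21 pairs among the 7 factors, 17 had ratios that did not overlap between WT and βEedKO at 25 weeks. The other 4 were Pdx1 to Pax6, Nkx6-1 to Mafa, Pax6 to Isl1 and Neurod1 to Isl1. The share of all gene pairs with such ratios was not computed, and the 21 pairs share the same 7 genes. The count is therefore a description without a reference.

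**Figure D3:**
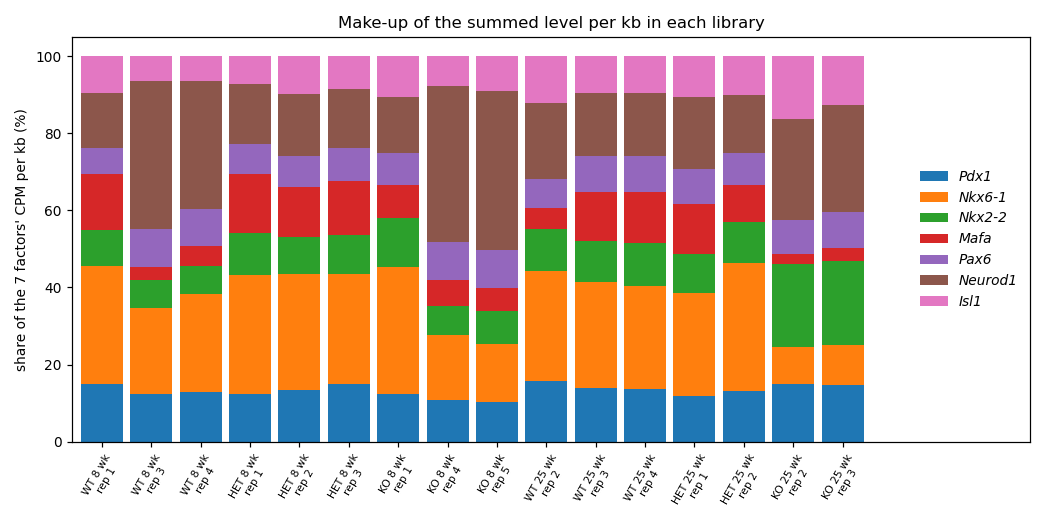
Share (y axis, percent) of each factor in the summed CPM per kb of exon of the 7, in each of the 16 libraries, named by genotype, age and replicate. In the 2 βEedKO libraries at 25 weeks Nkx6-1 takes 9.39% and 10.6% and Nkx2-2 21.8% and 21.7%; WT replicates 3 and 4 and βEedKO replicates 4 and 5 at 8 weeks, the libraries with high interferon-induced genes, have the largest shares of Neurod1.

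HET islets served as a second control that shares the βEedKO libraries with the first. Against HET at 25 weeks, 6 of the 7 factors were called lower, all but Nkx2-2, where 2.95% of 18828 genes were called lower. None of the 7 overlapped, a state shared by 27.9% of genes with so few libraries. Log2 fold changes were −3.48 (SE 0.56, adjusted p = 0.00257 in edgeR) for Nkx6-1 and −3.75 (SE 0.76, adjusted p = 0.00891) for Mafa. For Neurod1 the value was −1.20 (SE 0.35, adjusted p = 0.0481). With the replicate number as a block the count was 3, Nkx6-1, Mafa and Pax6, and Pdx1, Neurod1 and Isl1 were lost. It was 4 without HET replicate 1, 3 without HET replicate 2, 2 without βEedKO replicate 2 and 4 without βEedKO replicate 3. Library size alone gave 3.

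HET islets themselves were not set apart from WT in these factors at 25 weeks. By edgeR 0 of the 7 were called, 0 had an unadjusted p under 0.05, and DESeq2 called 0. Over all genes 0% were called and 210 genes had an unadjusted p under 0.05. In HET at 25 weeks Pdx1 was at 82.0 and 102 CPM, Nkx6-1 was at 272 and 379 CPM, and Nkx2-2 was at 95.6 and 109.7 CPM. Mafa was at 116 and 96.4 CPM, Pax6 was at 347 and 357 CPM, Neurod1 was at 165 and 148 CPM, and Isl1 was at 134 and 143 CPM. The sign of Nkx6-1, Nkx2-2, Mafa, Pax6 and Isl1 turned under at least 1 alternative. Log2 fold changes ran from −0.27 (Pdx1, SE 0.30) to 0.06 (Nkx6-1, SE 0.46), and every factor overlapped between the groups, where 7.06% of genes were lower and 8.91% higher without overlap.

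At 8 weeks, 0 of the 7 factors were called between βEedKO and WT by edgeR, 0 had an unadjusted p under 0.05, and DESeq2 called 0. Of 18685 genes, 0.434% were called. Every factor overlapped between the groups, whereas 4.86% of genes were lower and 6.54% higher without overlap. The largest differences were those of Pdx1, with a log2 fold change of −0.55 (SE 0.28, adjusted p = 0.700), and Nkx6-1, with −0.48 (SE 0.45, adjusted p = 0.889). Isl1 was at 137, 70.2 and 73.4 CPM in WT and at 142, 60.1 and 75.5 CPM in βEedKO at 8 weeks. Nkx2-2 was at 99.6, 57.4 and 62.2 CPM in WT and 124, 42.0 and 52.3 CPM in βEedKO of that age. The values of Pax6 were 282, 314 and 332 CPM in WT and 329, 228 and 249 CPM in βEedKO. In both genotypes replicate 1 was the highest for Isl1 and Nkx2-2. Estimates for Nkx2-2 (−0.0066, SE 0.37) and Isl1 (−0.010, SE 0.34) lay near 0 and turned positive with library size alone, to 0.23 for each. The SE of the 7 ran from 0.24 to 0.60, so changes of that size were not detectable at 8 weeks.

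Much of the spread at 8 weeks went with a split of the libraries that the interferon-induced genes mark. Replicate 1 of WT and of βEedKO had these genes low, and the other libraries of both groups had them high. Within WT, Mafa was at 146 CPM in replicate 1 and at 26.6 and 42.4 CPM in replicates 3 and 4. Neurod1 went the other way, at 145 CPM in replicate 1 and 288 and 268 CPM in replicates 3 and 4. In replicates 3 and 4, relative to replicate 1, the mean was 52.4% for Isl1, 60.1% for Nkx2-2, 60.5% for Nkx6-1, 65.6% for Pdx1 and 115% for Pax6. The replicates differ in more than this gene set. In WT the summed α cell markers were 11799 CPM in replicate 1 and 25873 and 29979 CPM in replicates 3 and 4. The summed acinar markers were 153451 CPM in replicate 1 and 45150 and 22851 CPM in replicates 3 and 4. In βEedKO the α cell markers were 12510 CPM in replicate 1 and 15874 and 24963 CPM in replicates 4 and 5. The part of any of these in the factors' values was not tested.

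Among the 4 libraries with high interferon-induced genes alone, Nkx6-1 was at 193 and 235 CPM in WT and at 105 and 103 CPM in βEedKO. Pdx1 was at 72.4 and 81.5 CPM in WT and at 46.4 and 47.6 CPM in βEedKO. Nkx2-2, Pax6 and Neurod1 were also lower in βEedKO without overlap, at 78.8%, 73.8% and 83.1% of WT, whereas Mafa and Isl1 overlapped. With 2 libraries against 2, 25.7% of all genes were lower without overlap, against 5 of the 7 factors. In replicate 1 of each group, where these genes were low, Nkx6-1 was at 354 CPM in WT and 353 CPM in βEedKO, and Pdx1 at 117 and 90.4 CPM. With both replicates 1 left out, an alternative chosen after seeing the data, edgeR called 0 of the 7 at 8 weeks. In that fit Mafa was 0.07 higher on the log2 scale.

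The comparison of βEedKO with HET at 8 weeks is tied to the same split, since all 3 HET libraries had low interferon-induced genes. By edgeR 0 of the 7 were called, with 2 at an unadjusted p under 0.05 and 0 called by DESeq2, where edgeR called 4.74% of all genes. Pdx1 and Mafa were lower without overlap, as were 14.5% of genes. Mafa was at 167, 111 and 147 CPM in HET and at 80.8, 36.4 and 35.8 CPM in βEedKO, a log2 fold change of −1.47 (SE 0.56, adjusted p = 0.132). Without βEedKO replicate 1 the count was 4 (Pdx1, Nkx6-1, Nkx2-2, Mafa), and then genotype and interferon-induced genes cannot be told apart. HET and WT at 8 weeks differed in 0 of the 7 by edgeR, with 1 (Neurod1) at an unadjusted p under 0.05 and 0 by DESeq2, and 0% of all genes were called. All 7 overlapped between these groups, where 9.09% of genes were lower and 10.3% higher without overlap. Without WT replicate 1 the count was 1 (Mafa, which was higher in HET).

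The fall at 25 weeks was set against the difference at 8 weeks in the same fit. By the paper's account diabetes also sets the older βEedKO animals apart from the younger, and its part was not tested. The difference between the ages was negative for all 7 factors, from −3.29 (SE 0.95) for Mafa to −1.02 (SE 0.56) for Nkx2-2. By edgeR 0 of the 7 passed over all genes, of which 0.198% were called, and 6 of the 7 had an unadjusted p under 0.05. Pax6 came nearest, with −1.77 (SE 0.36, adjusted p = 0.108). DESeq2 called 3, Nkx6-1, Mafa and Pax6. The fit of all 16 libraries called 1, Pax6, and the fit without both replicates 1 at 8 weeks called 1, Nkx6-1.

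In WT islets, age itself called 0 of the 7 by edgeR and by DESeq2, with 0 at an unadjusted p under 0.05. Over all genes 0% were called. Nkx2-2 was higher at 25 weeks without overlap, as were 7.08% of genes, with a log2 fold change of 0.64 (SE 0.37, adjusted p = 0.535). Without both replicates 1 at 8 weeks Nkx2-2 and Isl1 were called higher, and that leaves only 8-week WT libraries with high interferon-induced genes.

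Genes listed as targets of these factors in β cells moved with them at 25 weeks. Of 14, including insulin, glucose-sensing and secretion genes, 9 were called lower and 0 higher, against 2.02% and 4.58% of all genes, and the median log2 fold change was −2.95, against 0.03 over all 18685 genes. This list, like the members and the other lists, was drawn up with earlier results of these data known. Its count is therefore a description and not independent support. Ucn3, a peptide of mature β cells, averaged 398 CPM (SD 50.4, n = 3) in WT and 10.8 CPM (SD 0.935, n = 2) in βEedKO islets, with a log2 fold change of −5.26. Slc30a8, the zinc transporter of insulin granules, had a log2 fold change of −3.38 (SE 0.36, adjusted p = 0.000715 in edgeR), and G6pc2, an islet glucose-6-phosphatase, −3.63 (SE 0.48, adjusted p = 0.00222). Ero1lb, an oxidoreductase for proinsulin folding, and Slc2a2, the glucose transporter, fell by 2.16 and 2.89 on the log2 scale.

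Other transcription factors of the islet did so less uniformly. Of 18 listed, 17 were tested, of which 2 were called lower and 1 higher, against 2.02% and 4.58% of all genes, with a median log2 fold change of −0.57. Mnx1, a homeodomain factor of β cells, fell by 1.67 (SE 0.33, adjusted p = 0.0139 in edgeR), and Mlxipl, the carbohydrate response factor, by 3.08 (SE 0.70, adjusted p = 0.0273). Foxa1, a pioneer factor of endoderm, rose by 6.12 on the log2 scale (SE 1.21, adjusted p = 0.0149), from 9 reads in the 3 WT libraries to 891 in the 2 βEedKO libraries. Insm1 and Glis3 had log2 fold changes of −0.81 and −0.94, with adjusted p of 0.138 and 0.162. Of 15 listed cofactors and partners, edgeR called 0 and DESeq2 1, with 3 at an unadjusted p under 0.05 in edgeR. Their median was −0.45, and the 5 with the smallest p, Meis2, Tcf4, Smarca2, Rnf20 and Dnmt3a, lay between −0.90 and −0.48.

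Markers of other cells moved too, named here after their values were seen, where 4.58% of all genes were called higher and 2.02% lower. Of 8 α cell markers 4 were called higher at 25 weeks (Irx1, Irx2, Gc and Pou3f4). Of 7 duct markers 3 were called higher (Sox9, Krt19 and Spp1), with 2 others at negative log2 fold changes that did not pass. Sox9 had a log2 fold change of 2.98 (SE 0.62, adjusted p = 0.0189 in edgeR). The paper, without showing the data, describes Sox9 as not reactivated in βEedKO islets. Of 6 macrophage markers 2 were higher (Cd74 and Ptprc), and of 7 mesenchyme markers 4 (Col1a1, Col1a2, Dcn and Pdgfra). Of 6 endothelial markers 1 was lower (Esm1), and of 4 δ cell and 8 acinar markers 0 were called. The summed α cell markers were 7797 to 8933 CPM in WT and 11704 and 12249 CPM in βEedKO, and the summed mesenchyme markers 88.0 to 124 and 247 and 370.5 CPM. Of 8 general endocrine genes, Scg2 and Scg3 were lower and Chgb higher. Bulk counts do not tell which cells carry these transcripts, and the part of other cells in the factors' levels was not tested.

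The genes beside the factors in the genome were described in the same way. Of the nearest counted coding genes on each side, 14 in all, 13 were tested, 1 was called lower and 2 higher, against 2.02% and 4.58% of all genes, and the median log2 fold change was 0.76. On the far sides of Nkx2-2 lie Nkx2-4 and Pax1, a paired-box gene of skeletal development, both with starts in the bivalent state M in WT islets. Pax1 had 1 read in the 3 WT libraries at 25 weeks and 714 reads in the 2 βEedKO libraries, and an adjusted p of 0.00471 in edgeR. Nkx2-4 had 0 reads in WT and HET and 19 reads in βEedKO at 25 weeks. Nkx2-2 between them was lower in the same libraries.

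The neighbours of Pdx1, Gsx1 and Cdx2, are homeobox genes with starts in state M, and were at 0 and 5 reads in WT at 25 weeks and at 68 and 307 reads in βEedKO. Neither passed over all genes, with adjusted p of 0.0691 and 0.180 in edgeR. Cdx2 had 52 reads in WT at 8 weeks, with values from 0 to 3.30 CPM, so its low level in WT was not uniform. Beside Pax6, Elp4 fell by 0.97 on the log2 scale and Rcn1 rose by 1.15, with adjusted p of 0.0206 and 0.0362.

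Neither neighbour of Nkx6-1 (Gpat3, Cds1), Mafa (Rhpn1, Zc3h3), Neurod1 (Itga4, Itprid2) or Isl1 (Itga1, Parp8) was called, with adjusted p of 0.0934 or more in edgeR.

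Antisense and overlapping genes could share reads with the factors, since strand use in the counting is not stated. Nkx2-2os, which shares 278 exonic bp with Nkx2-2, had 0 to 4 reads in any library, and Gm26755, antisense to Neurod1 with 154 shared bp, had 1 to 6 reads in any group. Cerkl, on the same strand as Neurod1 with 201 shared bp, was at 16.8 ± 4.82 CPM in WT and 9.35 ± 4.19 CPM in βEedKO at 25 weeks, well below Neurod1. Plut and Pax6os1, antisense to Pdx1 and Pax6 with 0 shared exonic bp, had log2 fold changes of −2.09 (adjusted p = 0.0528) and −1.84 (adjusted p = 0.00780). Both are close to the values of their partners, −1.99 and −1.97. A second gene antisense to Nkx2-2, 6430503K07Rik, had −1.24 (adjusted p = 0.415).

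In the segmentation the factors had broad active starts. The unbroken run of states A, B (the other active start site state) and C (start site flank) that holds the annotated gene start was 11.8 kb at Pax6 and 11 kb at Nkx6-1. It was 6.8 kb at Isl1, 5.8 kb at Pdx1, 4.6 kb at Neurod1, 4.2 kb at Mafa and 4 kb at Nkx2-2. Over 9325 other protein-coding genes with a start in these states the median was 1.2 kb and the 95th percentile 3.2 kb, so that all 7 lay above it. With the longer runs of states A to J, which add cis-regulatory, elongation and enhancer states, 0 of the 7 lay above the 95th percentile of 25.2 kb. For the run of states A to C, each factor was wider than at least 96.9% of these genes. The annotated start of Nkx2-2 at 147194243 on chromosome 2 belongs to noncoding transcripts. The start of its coding transcript at 147186404 was also in state A, in a run of 7.4 kb. The segmentation averages replicates and holds no spread, so no test was made.

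**Figure D4:**
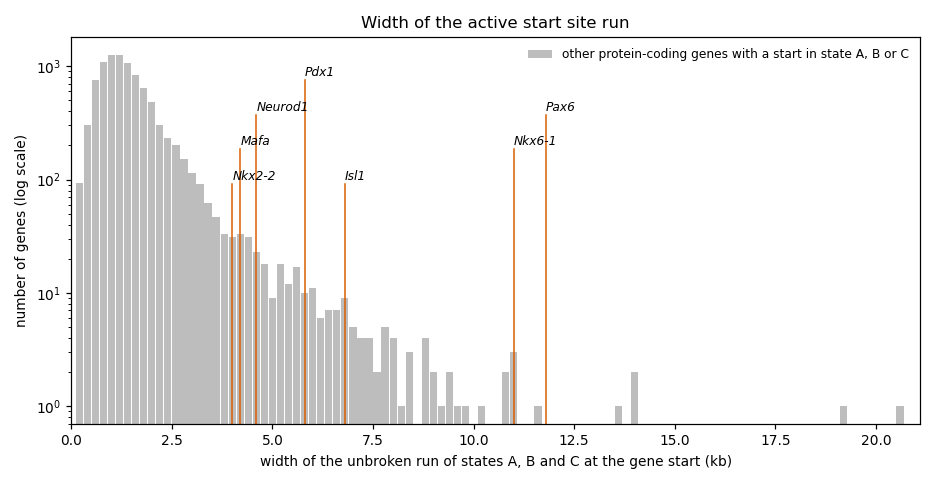
Width of the unbroken run of states A, B and C at the annotated start (x axis, kb) against the number of genes on a log scale (grey bars, 9325 other protein-coding genes with a start in these states). Orange lines mark the 7 factors, which lie between 4 and 11.8 kb, where the median of the other genes is 1.2 kb.

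States A to C, the active start site states with the start site flank, covered most of each gene as well. They took 100% of the bodies of Nkx6-1 and Mafa, 95.5% of Neurod1, 94.8% of Isl1, 93.5% of Pdx1, 76.2% of Pax6 and 68.2% of Nkx2-2, against a median of 4.59% over the other genes. Several of these genes are short, which raises the share. Polycomb and bivalent states, K to O, were near all the same. Within 20 kb on each side of the start they covered 34.3% at Nkx6-1, 32.3% at Mafa, 15.9% at Isl1 and 9.95% at Pax6. They covered 3.48% at Nkx2-2, 2.99% at Pdx1 and 0.995% at Neurod1. The median of the other genes was 15.9%, the 75th percentile 31.8% and the 95th percentile 53.2%. The 2 factors with the largest changes at 25 weeks had the most K to O chromatin around them, a description of 7 genes with no test. Pdx1 and Pax6, with far less of it, had log2 fold changes of −1.99 and −1.97. The map of states shows these segments by distance.

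**Figure D5:**
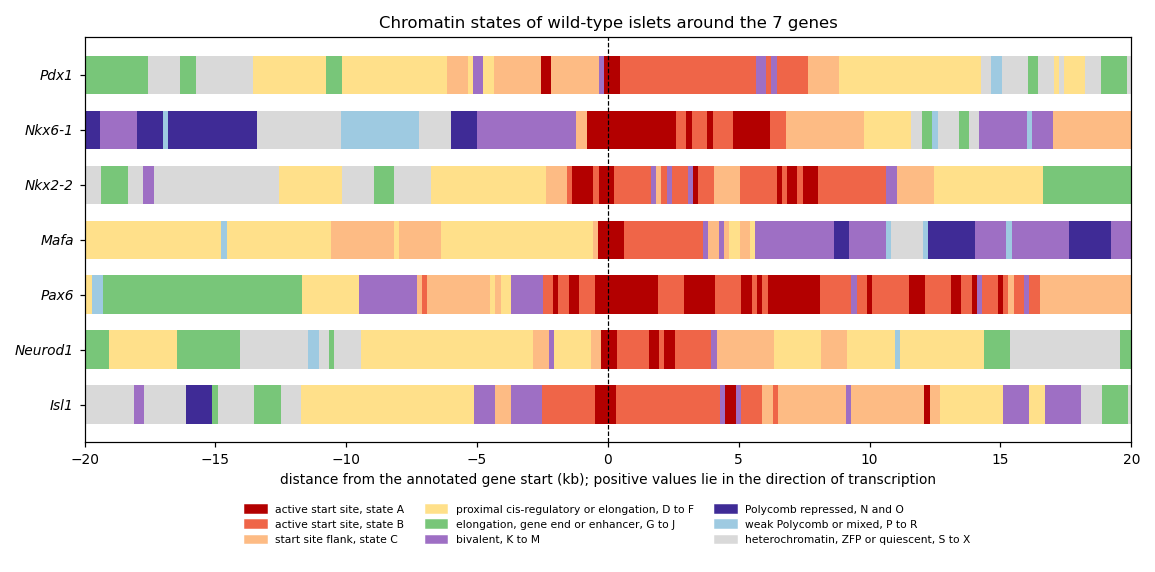
Chromatin state of WT islets (colours) from 20 kb before to 20 kb after the annotated start of each factor (x axis, kb, oriented in the direction of transcription), as 1 row per gene. All 7 starts lie in red state A; purple and dark blue K to O segments cover 34.3% of the window at Nkx6-1 and 32.3% at Mafa and 0.995% at Neurod1.

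Breadth at the start went with a lower level in βEedKO among other genes too. Of the genes tested with a start in state A, B or C, leaving out the 7, those with a run of 4 kb or more numbered 290, and 11.7% of them were called lower and 0 higher at 25 weeks. In runs over 2 and under 4 kb 6.43% were called lower, in runs over 1 and up to 2 kb 2.07%, and in runs up to 1 kb 1.56%. The median log2 fold changes were −0.55, −0.30, −0.15 and −0.05 in the same order. The median level in WT also rose with breadth, from 16.3 to 137 CPM, and its part in these shares was not tested. The 7 factors, at −3.76 to −1.03, lay below the median of even the broadest class.

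Over the 16 libraries, the genes whose level followed the mean profile of the 7 factors most closely were Itpkb, Atp2a3, Klhl32, Ky and Snph, out of 9590 with a mean of 10 CPM or more. The root mean square difference of their centred log2 CPM from the profile was 0.16 for Itpkb and Atp2a3 and 0.19 to 0.21 for the others. Measured against the mean of the other 6, the factors themselves were at 0.19 (Pdx1), 0.25 (Pax6), 0.39 (Isl1), 0.52 (Nkx2-2), 0.59 (Nkx6-1), 0.75 (Neurod1) and 0.87 (Mafa). The 5 genes were chosen on these same libraries, so their lower level in βEedKO at 25 weeks follows from the choice and is given without a test. The log2 fold change was −1.78 for Atp2a3, a calcium pump of the endoplasmic reticulum, and −2.29 for Itpkb, an inositol phosphate kinase.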

How the data were processed

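The authors mapped reads of TruSeq RNA libraries to GRCm38 with TopHat2 2.0.13, counted reads per Gencode M9 gene with featureCounts (Subread 1.5.0-p1), and deposited raw counts; strand use is not given in the sources used here. They also deposited chromatin state letters made by EpicSeg from islet ChIP-seq and methylation data in 200 bp bins, replicates averaged. Signal tracks, single cells and human islets were not used here.

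Counts, 4645393 to 22925359 per library, entered edgeR 4.0.16 under R 4.3.3 (TMM, filterByExpr, quasi-likelihood test, Benjamini-Hochberg, calls at an adjusted p under 0.05). One fit held the 11 WT and βEedKO libraries (18685 genes) and one all 16 in 6 groups (18828 genes, for comparisons with HET). DESeq2 1.42.0 was an alternative, beside other scalings, filters, controls, libraries left out and a replicate block. SE was taken from the log2 fold change and the F statistic. Identifiers of 47224 of 47937 genes matched the annotation used, a later release of the same build; all 7 factors matched.

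Same-numbered WT and βEedKO libraries of an age deviated together from their group means, with correlations of 0.406 and 0.112 at 8 weeks and 0.132 and 0.185 at 25 weeks over 18828 genes. No stated design gives pairs, and these correlations cannot show them, since WT and βEedKO libraries of unlike number were never correlated for reference. At 25 weeks the 2 βEedKO libraries deviate from their mean by opposite amounts, so those correlations share 1 contrast. At 8 weeks both replicates 1 had low interferon-induced genes, and the part of that in 0.406 was not tested. The replicate block is therefore an alternative only, and the main fits hold no pairs. The methods call the libraries biological replicates of 1 or 2 animals, or larger pools, so p-values measure the spread between such preparations and not between single animals. Within groups no library was a copy of another (chi-square per degree of freedom of 31.03 to 591.6), and libraries of different groups were not compared.

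The members and lists were chosen with earlier results of these data known. Named genes are the 7 factors, their overlapping and nearest coding genes, the 5 smallest p at 25 weeks in each list of other islet factors, targets and partners, the 5 most like genes, and Eed. Called cell type markers were added after their values were seen. Scripts were tested on simulated data.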

Additional observations from a re-analysis of the deposited data

How the results depend on the processing

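At 25 weeks all 7 factors were lower in βEedKO than in WT under each of the 15 alternatives, and than in HET under each of the 11. The number called against WT was 5 and ran from 1 to 4 when 1 library was left out. It was 2 with library size alone, and 5 to 7 under the others, including 6 with the replicate block. Against HET it was 6, ran from 2 to 4 when 1 library was left out, and was 3 with library size alone and 3 with the replicate block. The block changed no other count of factors called; it was not run for the ages of WT, which share no block.

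The difference between the ages called 0 factors, but 3 in DESeq2, 1 in the fit of all 16 libraries and 1 without both replicates 1 at 8 weeks. HET against WT at 8 weeks called 0 to 1 when 1 library was left out, and 4 without both replicates 1. βEedKO against HET at 8 weeks called 0 to 4 when 1 library was left out, and 6 without both replicates 1. WT at 25 against 8 weeks called 2 without both replicates 1. In these fits every WT and βEedKO library of 8 weeks has high interferon-induced genes and the others low, and what part that has was not tested.

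Of the log2 fold changes of the 7 factors in the 8 comparisons, signs turned in 3 comparisons, in which edgeR called 0 factors. In βEedKO against WT at 8 weeks Nkx2-2 became 0.0017 with DESeq2 size factors, 0.0016 in DESeq2, 0.23 with library size alone and 0.014 with that age alone, and ran from −0.62 to 0.26 when 1 library was left out. Isl1 became 0.23 with library size alone and 0.0080 with that age alone, and ran from −0.45 to 0.34. Mafa ran from −0.97 to 0.53 and was 0.066 without both replicates 1. Neurod1 became 0.035 with HET pooled into the control. In HET against WT at 25 weeks, with 1 library left out, Nkx6-1 ran from −0.19 to 0.29, Mafa from −0.25 to 0.27, Pax6 from −0.14 to 0.032 and Isl1 from −0.20 to 0.054. Library size alone gave 0.039 for Pax6 and 0.011 for Isl1, and the replicate block 0.19 for Pax6 and 0.059 for Nkx2-2. In βEedKO against HET at 8 weeks Neurod1 was −0.037 with the replicate block. Runs of states A to J instead of A to C put 0 of the 7 starts above the 95th percentile, which is 25.2 kb there. Gaps of up to 400 bp left 7. Other transcript starts also left 7, where a gene counted if any of its coding starts passed. A coding start of Pax6 at 105678391 on chromosome 2 lay in the bivalent state L, with a run of 0 kb.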
